A study of Arabidopsis thaliana with 6 samples.

Results

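The genes described here are 42 *Arabidopsis thaliana* loci of the 33555 genes listed in each library, chosen from a fixed list of locus identifiers, in which the digit after AT is the chromosome: 22 encode proteins of the Calvin-Benson cycle, and 20 encode enzymes and transporters of photorespiration. Their transcript levels were measured by RNA-Seq in rosette leaves of plants before stress (W), in a first dehydration stress (S1) and in the third (S3). Ecotype (Col-0) and genotype (WS) are labelled alike in all 6 libraries. The study's methods name Col-0 alone, so what the WS label means is unclear. All plants grew in soil at 22 °C with 12 h of light a day. W plants were the watered control, taken after a night in humid chambers once they had been lifted from the soil. S1 plants were dried in air for 2 h, and S3 plants went through the third such drying, having recovered in water for 22 h after each earlier one. Each condition has 2 libraries, described in the study's methods as independent biological samples. A control kept in water for as long as the S3 plants was not analysed here, so the number of stresses and the time out of soil cannot be told apart.

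In the Calvin-Benson cycle, Rubisco fixes CO2 onto ribulose bisphosphate, the product is reduced to triose phosphate with ATP and NADPH, and the acceptor is regenerated from triose phosphate. Rubisco also accepts oxygen, and photorespiration recycles the phosphoglycolate that this makes: glycolate leaves the chloroplast, is oxidised and aminated to glycine in the peroxisome, is converted to serine with release of CO2 and ammonium in the mitochondrion, and returns through the peroxisome to the chloroplast as glycerate. Both pathways run in the green cells of the leaf, and when a drying leaf closes its stomata, CO2 inside it falls and Rubisco's reaction with oxygen gains ground.

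Levels are FPKM, fragment counts divided by transcript length and by the mapped fragments of the library, as the authors deposited them. They hold no read counts, so the depth behind a value is unknown and no counting interval is given. FPKM summed over all genes lay between 891240 and 974046 per library. Of the 33555 genes, 24759 were above 0 in at least 1 library and were tested together with limma on log2(FPKM + 1). A gene is called differentially expressed when 3 criteria are met: the adjusted p is 0.05 or less, the log2 fold change is 1 or more in size, and FPKM exceeds its 25th percentile in a condition compared; "rose" and "fell" are used for any change that meets the first. The median log2 fold change of all 24759 genes was 0.0 in S1/W and S3/S1 and 0.01 in S3/W, and over the 14373 genes of at least 5 FPKM it was 0.09, 0.01 and 0.14 in the same order. S1/W and S3/W share the W libraries, and S1/W and S3/S1 share the S1 libraries. Reads were longer in W than in S1 and S3, so read length cannot be told apart from stress in the comparisons with W. The S3 values come from another run of the program that computed FPKM than those of W and S1. In S3/S1 and S3/W this run cannot be told apart from the third stress. Markers were those of leaves: 4 mesophyll genes summed to 19200 to 21530 FPKM in W, and 5 root genes to at most 0.2227 FPKM in any library, with 2 of the 5, *CASP1* and *PHT1;1*, at 0 in all.

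*RBCS1A* (AT1G67090), which encodes a small subunit of Rubisco, is listed at 0 FPKM in both W libraries although it is the highest member in both S1 libraries. A listed 0 can be a failed estimate in these tables: 13 genes are at 0 in both W libraries and at 100 FPKM or more in all 4 others, the highest of them AT1G29930, a chlorophyll a/b binding protein gene of the light-harvesting antenna. No gene shows the same in S1 or in S3. *RBCS1A* is therefore given no fold change against W and is left out of the sums and medians below.

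The summed transcripts of both pathways were lower in S1 than in W, those of the Calvin-Benson cycle by more, and from S1 to S3 only the Calvin-Benson sums were lower again. Summed over 21 members, the Calvin-Benson cycle had 41040 and 34490 FPKM in the W libraries, 14260 and 11940 in those of S1 and 7289 and 8227 in those of S3. The 20 photorespiratory members summed to 11000 and 10840 FPKM in the W libraries, 7321 and 7071 in those of S1 and 7022 and 7919 in those of S3. The Calvin-Benson sums thus did not overlap between any of the conditions, whereas the S1 and S3 sums of photorespiration did. The 13 photorespiratory members outside the peroxisome summed to 7370 and 6988 FPKM in the W libraries, 4907 and 4458 in those of S1 and 2624 and 3232 in those of S3, also without overlap. Within a library, the photorespiratory sum was 0.268 and 0.314 of the Calvin-Benson sum in W, 0.513 and 0.592 in S1, and 0.963 and 0.963 in S3. Without any Rubisco small subunit gene, a choice made after seeing the data, the mean ratio went from 0.507 in W through 0.823 in S1 to 1.04 in S3. With *RBCS1A* kept, also chosen after seeing the data, the ratio was 0.308 and 0.392 in S1 and 0.809 and 0.795 in S3. These S1 ratios overlap those of W, whose sums lack *RBCS1A* because it is listed at 0 there.

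**Figure D1:**
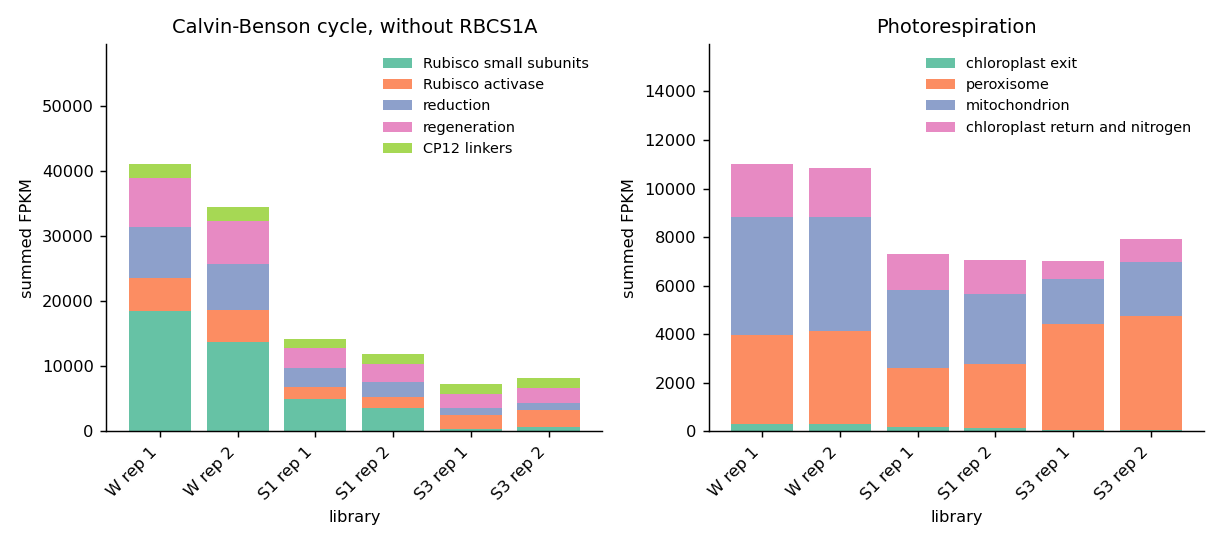
Summed FPKM of the members in each of the 6 libraries, stacked by pathway step, for the Calvin-Benson cycle without *RBCS1A* (left) and photorespiration (right, on its own scale). The W stacks of the Calvin-Benson cycle reach 41040 and 34490 FPKM and its S3 stacks only 7289 and 8227, while the peroxisomal part of photorespiration is taller in S3, at 4397 and 4687 FPKM, than in S1, at 2413 and 2614.

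By gene, 15 of the 21 Calvin-Benson members compared were differentially expressed and lower in S1 than in W, beside 12.1% of all genes tested, and 1 was higher, beside 13.7%. Their median log2 fold change was -1.49. Of the 20 photorespiratory members, 4 were lower by these criteria, with a median of -0.79, and by the adjusted p alone 15 were lower, beside 25.8% of all genes. In limma 0 were higher by either rule, and 0 at an unadjusted p of at most 0.05, where 27.9% of all genes rose by the adjusted p. Once each library had the same summed FPKM, 7 photorespiratory members in place of 4 were called lower. From S1 to S3, 10 of 22 Calvin-Benson members were lower, beside 6.71% of all genes, with a median of -0.75, and by the adjusted p alone 13 fell, beside 16.2%, and 2 rose, beside 15.9%. In the same comparison 6 of 20 photorespiratory members were lower and 3 higher, beside 5.55% of all genes, and by the adjusted p alone 9 fell and 6 rose, with a median of -0.32. Against W, 18 of 21 Calvin-Benson members were lower in S3, beside 14.4%, and 1 higher, beside 15.3%, with a median of -1.77. For photorespiration 11 were lower, with a median of -1.14, while by the adjusted p alone 11 fell, beside 27.2%, and 3 rose, beside 30.3%. Counts by the adjusted p were often smaller with a library left out. Such a fit holds 1 library of that condition and estimates the spread from fewer libraries. Its adjusted p can therefore rise where the log2 fold change is the same, and a lost call does not show that the library left out had made it. The 2 Calvin-Benson rises of S3/S1 were 0 without any of the S1 or S3 libraries and 1 without either W library. The 6 photorespiratory rises of S3/S1 were 2 without S1 replicate 1 or S3 replicate 2 and 4 without S1 replicate 2, and the 3 of S3/W were 0 to 2 with any of the 6 libraries left out.

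Markers of leaf cell types moved with the conditions as well. The 4 mesophyll markers, which are themselves photosynthesis genes, summed to 19200 to 21530 FPKM in W, 6787 to 7945 in S1 and 6412 to 6817 in S3. The S1 and S3 sums hide opposite changes: *CA1* fell from S1 to S3 (log2 fold change -3.07, adjusted p = 0.00287), *LHCB2.1* rose (1.90, adjusted p = 0.00281), and the other two did not pass the test. The 5 guard cell markers summed to 117.1 to 141.2 FPKM in W, 18.9 to 35.4 in S1 and 18.9 to 25.8 in S3, most of it in W from *GC1*, at 95.96 and 117.7 FPKM. Only *GC1* and *MYB60* fell in S1, while *FAMA*, *HT1* and *SLAC1* did not pass the test (adjusted p = 0.0617, 0.91 and 0.74). The 4 phloem and bundle markers summed to 164 to 170.3 FPKM in W, 547 to 644 in S1 and 765 to 781 in S3, and all 4 rose in S1. The 3 epidermal markers summed to 104.5 to 143 in W, 297 to 330.4 in S1 and 250.4 to 292 in S3, but only *FDH* rose in S1 (adjusted p = 0.00204), and *ATML1* and *PDF1* did not pass the test (adjusted p = 0.437 and 0.633). None of the markers of these 4 cell types was at 0 in all libraries. Their part in the changes described here was not tested, and in whole leaves fewer cells of a type and less RNA per cell cannot be told apart.

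The small subunit genes of Rubisco are 4 in number, and 3 of them, *RBCS1B*, *RBCS2B* and *RBCS3B*, lie side by side within 8.3 kb on the minus strand of chromosome 5, while *RBCS1A* lies alone on chromosome 1. The coding sequences of the 3 neighbours are 96.7 to 97.3% identical to each other, and that of *RBCS1A* is 90.4 to 90.6% identical to theirs, so reads of the neighbours can be shared and their separate levels are uncertain. The stretch below, coding positions 15 to 104 counted from the A of the start codon, shows what tells the copies apart, with the 23 positions at which at least 1 copy differs in capitals (TAIR10.1 assembly with RefSeq annotation, minus strand, first exon: chr1:25049146-25049235 for *RBCS1A*, chr5:15385052-15385141 for *RBCS1B*, chr5:15381875-15381964 for *RBCS2B* and chr5:15378203-15378292 for *RBCS3B*).
RBCS1A: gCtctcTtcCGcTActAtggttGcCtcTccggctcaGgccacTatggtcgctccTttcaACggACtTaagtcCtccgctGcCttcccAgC
RBCS1B: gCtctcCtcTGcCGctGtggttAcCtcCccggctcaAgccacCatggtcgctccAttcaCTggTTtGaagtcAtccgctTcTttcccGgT
RBCS2B: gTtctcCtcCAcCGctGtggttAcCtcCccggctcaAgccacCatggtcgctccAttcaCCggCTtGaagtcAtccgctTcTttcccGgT
RBCS3B: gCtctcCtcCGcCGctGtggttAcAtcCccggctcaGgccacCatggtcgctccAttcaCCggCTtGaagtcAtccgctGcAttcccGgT
Of these 90 bases, *RBCS1B* differs from *RBCS2B* at 5 and from *RBCS3B* at 7, whereas *RBCS1A* differs from *RBCS1B* at 20.

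Despite this likeness the listed levels of the copies changed by different amounts. *RBCS1B* (AT5G38430) had W levels of 3824 and 2446 FPKM, S1 levels of 150.5 and 112, and S3 levels of 29.2 and 22.5, with no overlap between conditions. It fell to 4.18% of its W level in S1 (log2 fold change -4.55 ± 0.28, adjusted p = 0.000286) and to 0.825% in S3 (log2 fold change -6.84 ± 0.28, adjusted p = 0.000121), the largest fall among the 41 members compared with W. *RBCS2B* (AT5G38420), its neighbour, had W levels of 5519 and 3935 FPKM, S1 levels of 1431 and 1222, and S3 levels of 198 and 309.9. It fell to 28.1% in S1 (log2 fold change -1.82 ± 0.31, adjusted p = 0.00637) and to 5.37% in S3 (log2 fold change -4.23 ± 0.31, adjusted p = 0.00037). *RBCS3B* (AT5G38410) was the most abundant copy with a value in W and had W levels of 9205 and 7429 FPKM, S1 levels of 3476 and 2285, and S3 levels of 227 and 349. It fell to 34.6% of W in S1 (log2 fold change -1.55 ± 0.36, adjusted p = 0.0178) and then to 10.0% of the S1 level in S3 (log2 fold change -3.32 ± 0.36, adjusted p = 0.00361). Values of the conditions did not overlap for either gene. Over all genes tested, both S1 values lay below both W values in 36.1%, both S3 values below both S1 values in 33.4%, and both S3 values below both W values in 35.8%. With a library left out, *RBCS2B* and *RBCS3B* stayed lower in S1 than in W, though not every such fit called them. Without S1 replicate 2, *RBCS2B* gave -1.70 and *RBCS3B* -1.25, and without W replicate 1, *RBCS3B* gave -1.40.

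*RBCS1A* had S1 levels of 9517 and 6085 FPKM and S3 levels of 1392 and 1732, both S3 values below both of S1. It fell to 20.0% from S1 to S3 (log2 fold change -2.29 ± 0.24, adjusted p = 0.00325), and in a fit of only these 4 libraries, in which the zeros of W do not enter the spread, its adjusted p was 0.0181. *RBCS1B* fell by 2.29 on the log2 scale from S1 to S3 (adjusted p = 0.00488), the same as *RBCS1A*, and *RBCS2B* fell by 2.41 (adjusted p = 0.00562; 0.0534 without S1 replicate 1). Relative to the others, *RBCS1A* took 65.3 and 62.7% of the summed FPKM of the 4 genes in S1 and 75.4 and 71.8% in S3. *RBCS1B* took the opposite place, with 0.415 and 0.329 of the *RBCS3B* level in W but 0.0433 and 0.0488 in S1 and, in S3, 0.129 and 0.0645. Together the 3 neighbours stood at 26.8% of their W sum in S1 and at 3.51% in S3.

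**Figure D2:**
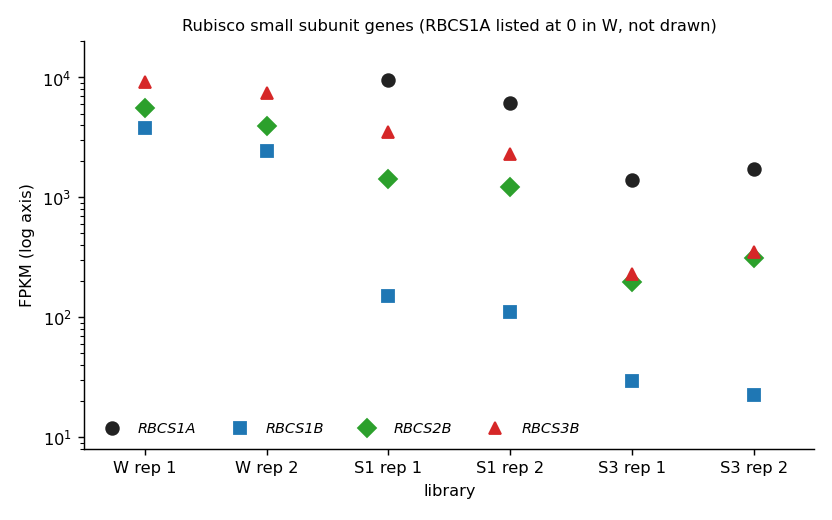
FPKM (log axis) of the 4 Rubisco small subunit genes in each of the 6 libraries, 1 symbol per gene, with *RBCS1A* not drawn in W because it is listed at 0 there. All 4 are lower in S3 than in S1, and *RBCS1B* drops furthest below its neighbours in S1, from 3824 and 2446 FPKM in W to 150.5 and 111.5.

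*RCA* (AT2G39730), whose product Rubisco activase frees Rubisco's active sites of inhibiting sugar phosphates, followed another course. It had W levels of 5014 and 4788 FPKM, S1 levels of 1730 and 1609, and S3 levels of 2147 and 2550. It fell to 34.1% of W in S1 (log2 fold change -1.55 ± 0.29, adjusted p = 0.00806). Its S3 values lay above both S1 values, but the log2 fold change of 0.49 ± 0.29 did not pass the test (adjusted p = 0.266). The call of S3/W (log2 fold change -1.07 ± 0.29, adjusted p = 0.0262) was lost whenever any of the 6 libraries was left out, at adjusted p of 0.0506 to 0.106. In S3 it stood at 47.9% of its W level, while the 3 small subunit neighbours stood at 3.51%. A gene on the opposite strand overlaps *RCA*, at up to 1.5% of its level.

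Most enzymes that reduce the first product to triose phosphate fell in both steps, 5 of the 6 by the adjusted p in each, beside 25.8% and 16.2% of all genes. As a sum they stood at 36.3% of W in S1 and 14.6% in S3, and all 6 were differentially expressed and lower in S3 than in W, beside 14.4% of all genes. *GAPA-2* (AT1G12900), a subunit gene of the NADPH-dependent glyceraldehyde phosphate dehydrogenase, had W levels of 2526 and 2242 FPKM, S1 levels of 378 and 266, and S3 levels of 109 and 138. It fell to 13.5% in S1 (log2 fold change -2.91 ± 0.23, adjusted p = 0.00053), second among the members only to *RBCS1B*. Its sister gene *GAPA* (AT3G26650) had W levels of 1806 and 1575 FPKM, S1 levels of 582 and 482, and S3 levels of 302 and 374, with a fall in S1 (log2 fold change -1.67 ± 0.19, adjusted p = 0.00166) and a log2 fold change of -0.65 ± 0.19 from S1 to S3 that missed the threshold (adjusted p = 0.0557). *GAPB* (AT1G42970), the gene of the partner subunit, had W levels of 1539 and 1457 FPKM, S1 levels of 576 and 428, and S3 levels of 151 and 186 and fell in S1 (log2 fold change -1.59 ± 0.20, adjusted p = 0.00221) and again in S3 (log2 fold change -1.56 ± 0.20, adjusted p = 0.00544). None of these 3 genes overlapped between conditions. Of all genes tested, 36.1% were lower without overlap in S1/W, 33.4% in S3/S1 and 35.8% in S3/W. The S3/S1 fall of *GAPA-2*, -1.36 ± 0.23 (adjusted p = 0.0111), lost its call without S1 replicate 1, S3 replicate 1 or S3 replicate 2 (adjusted p = 0.0592, 0.0825 and 0.0501), and that of *GAPB* without S3 replicate 1 (adjusted p = 0.0505).

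The phosphoglycerate kinases, which phosphorylate the product of Rubisco, fell more between the stresses than in S1. *PGK1* (AT3G12780) had W levels of 1329 and 1258 FPKM, S1 levels of 1005 and 867, and S3 levels of 276 and 288. It was at 72.4% of W in S1 (log2 fold change -0.47 ± 0.15, adjusted p = 0.0484; 0.0557 to 0.154 with any of the 6 libraries left out, 0.108 in a fit of W and S1 only and 0.0526 with a pseudocount of 0.1) and at 30.1% of S1 in S3 (log2 fold change -1.73 ± 0.15, adjusted p = 0.00208). *PGK2* (AT1G56190), with W levels of 194 and 189.6 FPKM, S1 levels of 102 and 78.9, and S3 levels of 25.5 and 25.7, fell in S1 (log2 fold change -1.09 ± 0.13, adjusted p = 0.00197; -0.91 without S1 replicate 2, under the fold criterion) and in S3 (log2 fold change -1.77 ± 0.13, adjusted p = 0.0014). *TIM* (AT2G21170), the plastid triose phosphate isomerase, had W levels of 473 and 397 FPKM, S1 levels of 367 and 308, and S3 levels of 151 and 166. Its S1 value did not pass the test against W (log2 fold change -0.36 ± 0.15, adjusted p = 0.0979), and it fell in S3 relative to S1 (log2 fold change -1.08 ± 0.15, adjusted p = 0.00678; -0.95 without S1 replicate 1, and adjusted p = 0.0588 without S3 replicate 1). In S1 the kinases and the isomerase stood at 47.0 to 77.6% of W, and the dehydrogenase subunits at 13.5 to 33.5%.

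The enzymes that regenerate the CO2 acceptor fell mostly in S1, with a median log2 fold change of -1.47 for S1/W and -0.44 for S3/S1. Of the 8 genes, 6 were differentially expressed and lower in S1, beside 12.1% of all genes, 1 was lower in S3 than in S1, beside 6.71%, and all 8 were lower in S3 than in W, beside 14.4%. The aldolase gene *FBA1* (AT2G21330) had W levels of 733 and 657 FPKM, S1 levels of 194 and 165, and S3 levels of 216 and 247, a fall to 25.8% in S1 (log2 fold change -1.95 ± 0.14, adjusted p = 0.000448) with no further fall. From S1 to S3 it gave 0.37 ± 0.14 (adjusted p = 0.113). *PRK* (AT1G32060), whose product phosphoribulokinase makes the acceptor, had W levels of 1191 and 1057 FPKM, S1 levels of 334 and 324, and S3 levels of 382 and 419. It fell to 29.3% in S1 (log2 fold change -1.77 ± 0.14, adjusted p = 0.000499) and gave 0.28 ± 0.14 from S1 to S3 (adjusted p = 0.183). A gene on the opposite strand overlaps *PRK* and reached at most 22.0% of its level, and the libraries do not keep strand. *SBPASE* (AT3G55800), the sedoheptulose bisphosphatase, had W levels of 664 and 597 FPKM, S1 levels of 245 and 203, and S3 levels of 176 and 192, with a fall in S1 (log2 fold change -1.49 ± 0.14, adjusted p = 0.000899) and -0.28 ± 0.14 from S1 to S3 (adjusted p = 0.204). *TKL1* (AT3G60750), a transketolase, had W levels of 1028 and 914 FPKM, S1 levels of 436 and 421, and S3 levels of 308 and 346, with a fall in S1 (log2 fold change -1.18 ± 0.14, adjusted p = 0.00177) and -0.39 ± 0.14 afterwards (adjusted p = 0.0907).

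Among the other regeneration genes, *RPI3* (AT3G04790), a ribose phosphate isomerase, stood apart. It had W levels of 202 and 168 FPKM, S1 levels of 51.5 and 43.2, and S3 levels of 15.8 and 15.5 and fell in both steps (log2 fold change -1.94 ± 0.13, adjusted p = 0.000382 for S1/W and log2 fold change -1.53 ± 0.13, adjusted p = 0.00208 for S3/S1), to 8.46% of W. The second aldolase, *FBA2* (AT4G38970), had W levels of 2233 and 1945 FPKM, S1 levels of 818 and 707, and S3 levels of 431 and 495. It fell in S1 (log2 fold change -1.45 ± 0.19, adjusted p = 0.0023) and by less in S3 (-0.72 ± 0.19, adjusted p = 0.0392; 0.0514 to 0.16 with any of the 6 libraries left out and 0.0531 once each library had the same summed FPKM). The fructose bisphosphatase gene *HCEF1* (AT3G54050) had W levels of 744 and 662 FPKM, S1 levels of 422 and 369, and S3 levels of 218 and 241, at 56.2% of W in S1 and 32.7% in S3 (log2 fold change -1.61 ± 0.14, adjusted p = 0.000548). *RPE* (AT5G61410), the ribulose phosphate epimerase, kept the most, with W levels of 714 and 668 FPKM, S1 levels of 507 and 466, and S3 levels of 327 and 362, that is 70.4% of W in S1 and 49.9% in S3. Its S3/W change of -1.0 ± 0.13 (adjusted p = 0.00211) lies at the fold criterion and was -0.95 without W replicate 1 and -0.93 without S3 replicate 1. All 8 genes had W values above both stresses, with no overlap, beside 36.1% of all genes tested for S1/W and 35.8% for S3/W.

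The CP12 proteins are small linkers that tie phosphoribulokinase to glyceraldehyde phosphate dehydrogenase and hold both inactive in the dark. Their 3 genes moved in 3 ways. *CP12-1* (AT2G47400), the most abundant, had W levels of 1472 and 1371 FPKM, S1 levels of 1212 and 1278, and S3 levels of 1157 and 1100, and none of its comparisons passed the test (adjusted p = 0.436, 0.618 and 0.185 for S1/W, S3/S1 and S3/W). *CP12-2* (AT3G62410) had W levels of 629.9 and 731 FPKM, S1 levels of 221 and 279.8, and S3 levels of 405 and 362: it fell to 36.8% in S1 (log2 fold change -1.45 ± 0.17, adjusted p = 0.00182). From S1 to S3 it gave 0.62 ± 0.17 (adjusted p = 0.0471), which was 0.0627 to 0.189 with any of the 6 libraries left out, 0.0516 with median-of-ratios size factors and 0.0528 in a fit of S1 and S3 only. *CP12-3* (AT1G76560) had W levels of 4.19 and 5.03 FPKM, S1 levels of 24.8 and 28.6, and S3 levels of 37.6 and 38.4. It rose to 579% of W in S1 (log2 fold change 2.30 ± 0.12, adjusted p = 0.000191) and to 823% in S3 (log2 fold change 2.80 ± 0.12, adjusted p = 0.000129), and it was the only member higher in S1 by the criteria. The gain from S1 to S3 was 0.50 ± 0.12 (adjusted p = 0.0327) and did not pass without either S1 or either S3 library (adjusted p = 0.0662 to 0.15). Its level remained far below its sisters: *CP12-1* was 351 and 272 times as abundant per length in W and 30.8 and 28.7 times in S3.

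**Figure D3:**
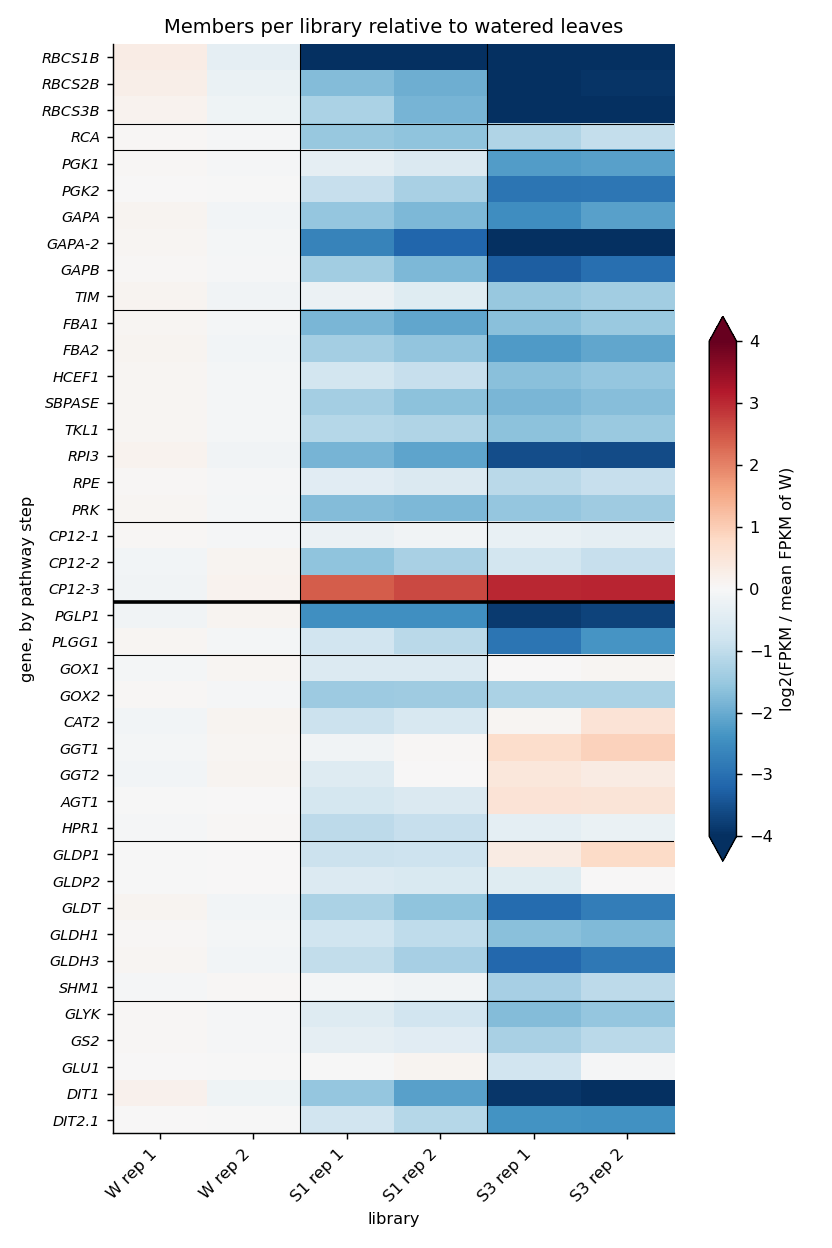
Log2 of FPKM over the mean FPKM of W for 41 members (*RBCS1A* is not drawn) in each library, 1 row per gene in pathway order, blue for lower and red for higher, with colours capped at 4 in either direction; lines part the pathway steps and the thick line the pathways. *CP12-3* is the only strongly red row, and *GLDP1*, *CAT2* and *AGT1* turn from pale blue in S1 to pale red in S3, while *GOX2* remains blue in both stresses and *GGT1* is near white in S1.

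In photorespiration, the genes for leaving the chloroplast fell. *PLGG1* (AT1G32080), the glycolate and glycerate transporter of the chloroplast envelope, had W levels of 321 and 291 FPKM, S1 levels of 181 and 144, and S3 levels of 40.6 and 59.5. The fall in S1 was to 53.2% of W (log2 fold change -0.92 ± 0.22, adjusted p = 0.0186; adjusted p = 0.0648 to 0.114 without W replicate 1, W replicate 2 or S1 replicate 2) and again in S3 to 30.8% of S1 (log2 fold change -1.70 ± 0.22, adjusted p = 0.00543; 0.0509 without S1 replicate 1). *PGLP1* (AT5G36700), the phosphoglycolate phosphatase, was listed at 1.26 and 1.5 FPKM in W and at 0.0970 to 0.255 in the stressed libraries. Its level is uncertain, since AT5G36790, 59.3 kb away, has an identical coding sequence over all 1089 bases and was likewise listed at only 2.88 and 2.74 FPKM in W. On log2(FPKM + 1) such low values give small changes, -0.92 ± 0.06 for S1/W (adjusted p = 0.000372), and with a pseudocount of 0.1 the same change was -2.06.

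The 7 peroxisomal genes fell in S1 or had values near W, and then stood higher in S3. Their W sums were 3632 and 3854 FPKM, their S1 sums 2413 and 2614 and their S3 sums 4397 and 4687, which is 67.2% of W in S1 and 121% in S3. In S1, 5 of the 7 fell by the adjusted p, beside 25.8% of all genes, 1 of them by all criteria, beside 12.1%, and 2 or 3 fell without any 1 of the W or S1 libraries. From S1 to S3, 5 of 7 rose by the adjusted p, beside 15.9% of all genes, 2 of them by all criteria, beside 5.55%, with a median log2 fold change of 0.66, and in limma 0 fell by the adjusted p and 0 at an unadjusted p of at most 0.05. Both S3 values lay above both S1 values in 7 of 7 genes, beside 33.1% of all genes tested. The count of 5 shrank to 1 without S1 replicate 1 or S3 replicate 2, to 3 without S1 replicate 2 or S3 replicate 1, and was 5 without either W library. Among the 13 photorespiratory members outside the peroxisome, 1 rose, beside 15.9% of all genes, and 9 fell, beside 16.2%, from S1 to S3 (5 fell without S1 replicate 1), with a median of -0.99.

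*AGT1* (AT2G13360), the serine-glyoxylate aminotransferase, was the only peroxisomal gene whose rise was called with every library left out in turn. It had W levels of 1004 and 1017 FPKM, S1 levels of 625 and 676, and S3 levels of 1485 and 1450, a fall in S1 (log2 fold change -0.64 ± 0.16, adjusted p = 0.0227; 0.0595 to 0.0862 without any of the W or S1 libraries) and a rise to 226% of S1 in S3 (log2 fold change 1.17 ± 0.16, adjusted p = 0.00644). *CAT2* (AT4G35090), the catalase that removes the hydrogen peroxide of glycolate oxidation, had W levels of 156 and 181 FPKM, S1 levels of 93.5 and 108, and S3 levels of 179 and 248, so S3 overlapped W. It rose to 212% of S1 (log2 fold change 1.06 ± 0.19, adjusted p = 0.0139), a call lost without S1 replicate 1 (0.96, adjusted p = 0.1), S1 replicate 2 (adjusted p = 0.0618) or S3 replicate 2 (0.83, adjusted p = 0.0535). A gene on the opposite strand overlaps *CAT2*, at up to 11.6% of its level. *GGT1* (AT1G23310), the main glutamate-glyoxylate aminotransferase, which makes glycine, had W levels of 741 and 819 FPKM, S1 levels of 711 and 802, and S3 levels of 1283 and 1478. Its S1 values overlapped those of W, and it rose from S1 to S3 by 0.87 ± 0.18 (adjusted p = 0.0208; 0.06 to 0.104 without any of the S1 or S3 libraries). It also stood above W in S3, at 177% (log2 fold change 0.82 ± 0.18, adjusted p = 0.0128; 0.0567 without W replicate 1 and 0.0529 without S3 replicate 2). Its lesser copy *GGT2* (AT1G70580) had W levels of 50.3 and 58.6 FPKM, S1 levels of 38.4 and 55.4, and S3 levels of 74.6 and 68.0, and no comparison passed (adjusted p = 0.372, 0.067 and 0.152 for S1/W, S3/S1 and S3/W).

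The glycolate oxidases, which make glyoxylate and hydrogen peroxide, parted from each other. *GOX1* (AT3G14420) had W levels of 786 and 889 FPKM, S1 levels of 567 and 571, and S3 levels of 851 and 883, so that S3 overlapped W again. It fell in S1 (-0.55 ± 0.15, adjusted p = 0.0272; 0.0808 to 0.0911 without W replicate 2 or either S1 library) and rose in S3 (0.61 ± 0.15, adjusted p = 0.0333; 0.0918 to 0.122 without any of the S1 or S3 libraries). *GOX2* (AT3G14415), its neighbour on chromosome 3 with a coding sequence 92.4% identical, had W levels of 459 and 428 FPKM, S1 levels of 163 and 165, and S3 levels of 185 and 185. It fell to 37.0% in S1 (log2 fold change -1.43 ± 0.09, adjusted p = 0.000323) and did not pass the test from S1 to S3 (0.17 ± 0.09, adjusted p = 0.23). *HPR1* (AT1G68010), the hydroxypyruvate reductase that makes glycerate, had W levels of 436 and 460.3 FPKM, S1 levels of 216 and 236, and S3 levels of 339 and 376. A fall in S1 (log2 fold change -0.99 ± 0.12, adjusted p = 0.00181) was followed by a rise from S1 to S3 (log2 fold change 0.66 ± 0.12, adjusted p = 0.0132; 0.0772 without S1 replicate 1 and 0.0587 without S3 replicate 2), with S3/W at -0.33 ± 0.12 (adjusted p = 0.0629).

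**Figure D4:**
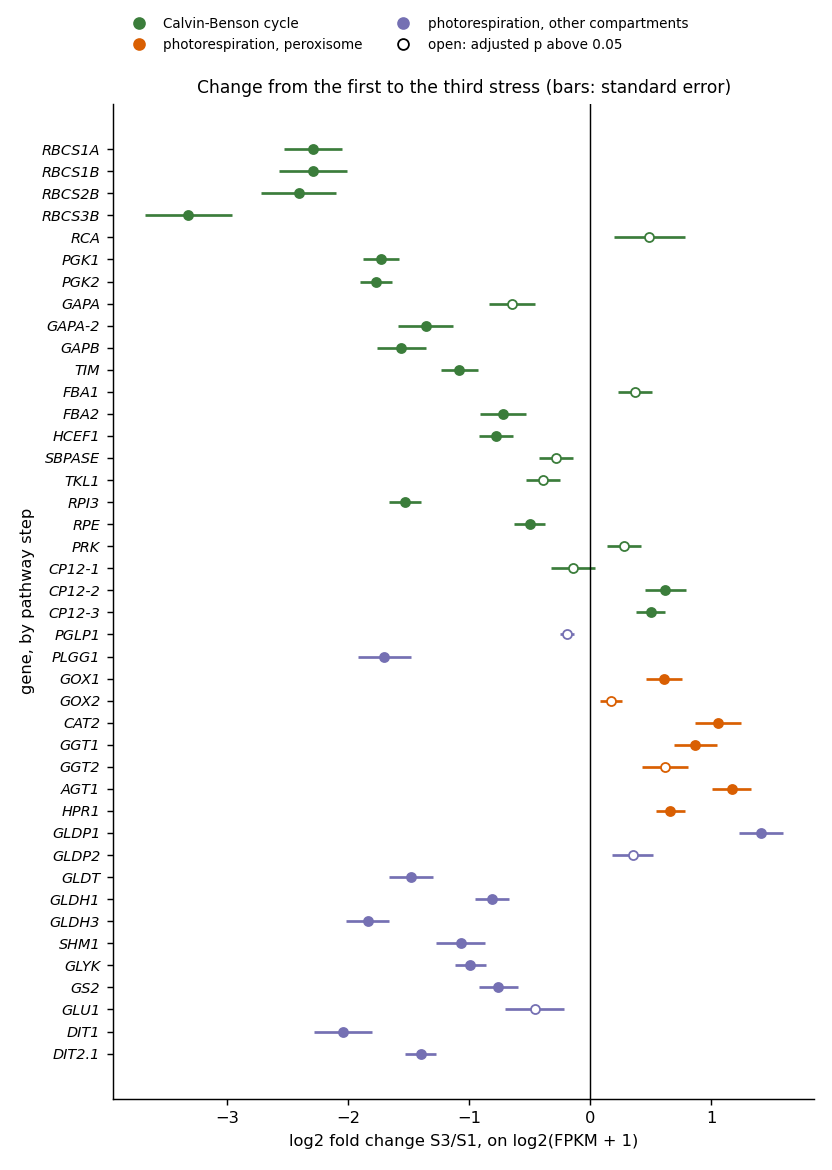
Log2 fold change of S3 against S1 on log2(FPKM + 1) for all 42 members in pathway order, with bars of 1 standard error; green marks the Calvin-Benson cycle, orange the peroxisomal and purple the other photorespiratory genes, and open points have an adjusted p above 0.05. The 7 orange points lie to the right of 0, between 0.17 and 1.17, and among the purple points *GLDP1* lies furthest right at 1.41 and *DIT1* furthest left at -2.04.

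In the mitochondrion, the member genes for subunits of 1 enzyme fell in S1 and parted from S1 to S3, where *GLDP1* alone rose. Glycine decarboxylase consists of P, T, H and L proteins, of which P binds and decarboxylates glycine, T releases ammonium, and H carries the intermediate between them. No gene for the L protein is among the members. *GLDP1* (AT4G33010), a P protein gene, had W levels of 470.1 and 482 FPKM, S1 levels of 262 and 266, and S3 levels of 602 and 816. It fell in S1 (log2 fold change -0.85 ± 0.18, adjusted p = 0.0118; 0.055 to 0.068 without any of the W or S1 libraries) and rose in S3 to 269% of S1 (log2 fold change 1.41 ± 0.18, adjusted p = 0.00512), the largest rise among the members and one called with every library left out in turn. It stood above W in S3 in both libraries (0.56 ± 0.18, adjusted p = 0.0433), a change that missed the threshold under both other scalings, in a fit of W and S3 only (0.0809) and without any library other than S3 replicate 1, at 0.0554 to 0.145. *GLDT* (AT1G11860), the T protein gene, had W levels of 837 and 730.5 FPKM, S1 levels of 327 and 259.6, and S3 levels of 93.4 and 115. Both steps were falls, in S1 (log2 fold change -1.42 ± 0.18, adjusted p = 0.00222) and again in S3 (log2 fold change -1.48 ± 0.18, adjusted p = 0.00463), to 13.3% of W. *GLDH3* (AT1G32470), an H protein gene, had W levels of 860.3 and 757 FPKM, S1 levels of 412 and 325, and S3 levels of 92.4 and 112, and fell in S1 (log2 fold change -1.14 ± 0.18, adjusted p = 0.00449; -0.97 without S1 replicate 2) and in S3 (log2 fold change -1.84 ± 0.18, adjusted p = 0.00259). A gene on the opposite strand overlaps *GLDH3* and stood at up to 89.4% of its level in S3. The other H protein gene, *GLDH1* (AT2G35370), overlaps no gene model and had W levels of 901 and 828 FPKM, S1 levels of 498 and 425, and S3 levels of 271 and 253, with a fall in S1 (log2 fold change -0.91 ± 0.14, adjusted p = 0.00438) and in S3 (-0.81 ± 0.14, adjusted p = 0.0126; 0.0616 to 0.069 without S1 replicate 1, S3 replicate 1 or S3 replicate 2).

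*GLDP1* thus stood at 0.562 and 0.66 of the *GLDT* level in W, at 0.80 and 1.02 in S1 and at 6.44 and 7.09 in S3, a ratio chosen after the values were seen. A gene on the opposite strand overlaps *GLDP1* as well, and it was lower in S3, at 10.8 and 8.35 FPKM, than in W, at 46.0 and 48.3. The second P protein gene, *GLDP2* (AT2G26080), had W levels of 91.1 and 94.2 FPKM, S1 levels of 63.0 and 61.0, and S3 levels of 66.3 and 94.7. It gave 0.35 ± 0.17 from S1 to S3 (adjusted p = 0.199), and its S3 values overlapped those of W. *SHM1* (AT4G37930), the serine hydroxymethyltransferase that works with glycine decarboxylase, had W levels of 1701 and 1788 FPKM, S1 levels of 1652 and 1574, and S3 levels of 699.7 and 847. It was close to W in S1 (-0.11 ± 0.20, adjusted p = 0.685) and fell in S3 to 47.9% of S1 (log2 fold change -1.07 ± 0.20, adjusted p = 0.0161; 0.0795 without S1 replicate 1, 0.0624 without S1 replicate 2 and 0.0801 without S3 replicate 1).

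The last steps, back in the chloroplast, were mostly lower. As a sum they stood at 69.4% of W in S1 and 40.3% in S3. *DIT1* (AT5G12860), the oxoglutarate and malate exchanger, had W levels of 346 and 271 FPKM, S1 levels of 106 and 67.9, and S3 levels of 20.9 and 18.9. It fell in S1 (log2 fold change -1.84 ± 0.24, adjusted p = 0.0025) and in S3 (log2 fold change -2.04 ± 0.24, adjusted p = 0.00434), to 6.45% of W, the largest fall of the photorespiratory members. A gene on the opposite strand overlaps it and held between 7.4 and 14.1 FPKM in all libraries, up to 49.5% of *DIT1* in S3. Its partner *DIT2.1* (AT5G64290), the glutamate and malate exchanger, had W levels of 88.8 and 85.7 FPKM, S1 levels of 50.9 and 39.3, and S3 levels of 16.5 and 16.1 and fell in both steps (log2 fold change -0.95 ± 0.13, adjusted p = 0.00323 and log2 fold change -1.40 ± 0.13, adjusted p = 0.00251). *GLYK* (AT1G80380), the glycerate kinase that ends the pathway, had W levels of 203 and 189 FPKM, S1 levels of 138 and 115, and S3 levels of 58.7 and 67.3, and fell in S1 (log2 fold change -0.64 ± 0.13, adjusted p = 0.0108; 0.0645 without W replicate 1 and 0.0565 without S1 replicate 2) and in S3 (log2 fold change -0.99 ± 0.13, adjusted p = 0.0057). *GS2* (AT5G35630), the glutamine synthetase that recaptures ammonium, had W levels of 1305 and 1229 FPKM, S1 levels of 977 and 920.1, and S3 levels of 521 and 598, with -0.42 ± 0.16 in S1 (adjusted p = 0.0861) and a fall in S3 (log2 fold change -0.76 ± 0.16, adjusted p = 0.0233; 0.0583 to 0.102 without any of the S1 or S3 libraries). *GLU1* (AT5G04140), the ferredoxin-dependent glutamate synthase that works with it, had W levels of 245 and 242 FPKM, S1 levels of 241 and 262, and S3 levels of 142 and 233, and no comparison passed (adjusted p = 0.91, 0.214 and 0.205 for S1/W, S3/S1 and S3/W).

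Ratios of gene copies within a library do not depend on how libraries are scaled, and several of them differed between conditions. The longer reads of W, the separate run of S3 and reads shared between copies can still affect such ratios, which was not tested. *GAPA* stood at 0.715 and 0.703 of *GAPA-2* in W, at 1.54 and 1.81 in S1 and at 2.78 and 2.71 in S3, so the more abundant copy changed. Against its partner subunit *GAPB*, *GAPA* was near balance in W and S1, at 1.01 to 1.17, and at 2.00 and 2.01 in S3. The ratio of *GOX1* to *GOX2* went from 1.71 and 2.08 in W to 3.48 and 3.45 in S1 and 4.61 and 4.77 in S3. *GLDH1* and *GLDH3* were near balance in W, at 1.05 and 1.09, and *GLDH1* was 1.21 and 1.31 times as abundant in S1 and 2.93 and 2.25 times in S3. The ratio of *GLDP1* to *GLDP2* was lower in S1, at 4.16 and 4.36, than in W, at 5.16 and 5.12, and higher in S3, at 9.08 and 8.62. The ratio of *CP12-1* to *CP12-2* was highest in S1, at 5.49 and 4.57, beside 2.34 and 1.88 in W and 2.86 and 3.04 in S3. For *FBA1* to *FBA2* the values were 0.328 and 0.338 in W, 0.237 and 0.233 in S1 and 0.5 and 0.5 in S3. Other pairs overlapped between conditions. The ratio of *GAPA* to *GAPB* overlapped between W and S1, as did that of *RBCS2B* to *RBCS3B*, at 0.6 and 0.53 in W and 0.412 and 0.535 in S1. For *PGK1* to *PGK2* the S1 ratios of 9.9 and 11 overlapped those of S3, at 10.8 and 11.2, both above W, at 6.85 and 6.64. *CP12-2* to *CP12-3* overlapped between S1 and S3 as well, and *GGT1* to *GGT2* overlapped between W and S1, at 14 to 18.5, and between S1 and S3. No share of pairs without overlap was computed over other genes.

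**Figure D5:**
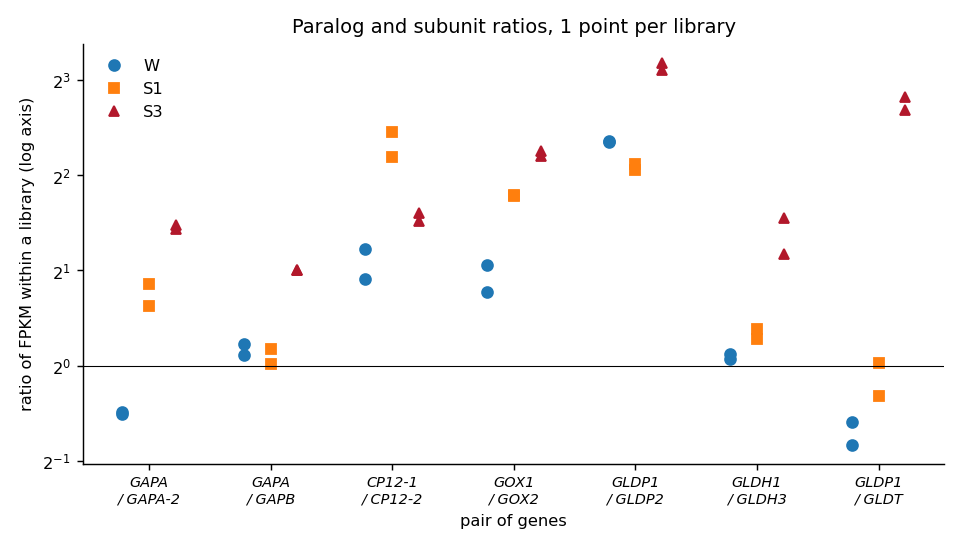
Ratio of the FPKM of 2 genes within a library (log axis), 1 point per library, for 6 pairs of copies or partner subunits and for *GLDP1* to *GLDT*. The S3 points of *GLDP1* to *GLDT*, at 6.44 and 7.09, lie far above those of W and S1, which reach at most 1.02, and *GAPA* to *GAPA-2* crosses the line of equal levels between W and S1.

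Related genes were counted beside the members. Of 12 factors that fold and assemble Rubisco, 9 were differentially expressed and lower in S1 than in W, beside 12.1% of all genes, 6 were lower in S3 than in S1, beside 6.71%, and 10 were lower in S3 than in W, beside 14.4%. Their medians were -1.39, -0.99 and -2.35. The chaperonin subunit gene *CPN60B2* had 124 and 101 FPKM in W and fell to 8.37 and 5.11 in S1 (log2 fold change -3.90 ± 0.23, adjusted p = 0.000255), and its partner *CPN60A1* from 406 and 302 to 79.4 and 58.1 (log2 fold change -2.35 ± 0.21, adjusted p = 0.000736). Of 15 cytosolic or lesser plastid counterparts of the cycle enzymes, 4 were lower and 1 higher in S1, beside 12.1% and 13.7% of all genes, with a median of -0.23, beside 0.0 for all genes. The cytosolic ribose phosphate isomerase gene *RPI1* had 9.34 and 7.94 FPKM in W and rose to 38.3 and 36.4 in S1 (log2 fold change 2.00 ± 0.11, adjusted p = 0.000213) and was at 5.30 and 5.12 in S3, while the plastid form *RPI4* fell (log2 fold change -1.75 ± 0.16, adjusted p = 0.00086). Of 17 other photorespiratory isoforms and transporters, 1 was lower and 1 higher in S1 (12.1% and 13.7% of all genes), and 1 was lower and 2 higher in S3 than in S1 (6.71% and 5.55% of all genes), with medians of -0.45 and 0.0. The lower one in S1 was the *PGLP1* copy AT5G36790, and the higher one was the glycolate oxidase gene *GOX3*. *GOX3* was listed at 0.0752 and 0.0927 FPKM in W, at 1.125 and 1.749 in S1 and at 9.04 and 5.83 in S3. Its S1/W call (log2 fold change 1.16 ± 0.23, adjusted p = 0.0103) thus rests on S1 levels near the FPKM criterion of 0.831.

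Promoters were read as the 250 bases before the outermost annotated start of each gene, which can lie well before the main start. Of the 27443 protein-coding genes so read, 6.49% held the G-box CACGTG, 12.3% the I-box core GATAAG, 22.9% the core of the ABA-responsive element ACGTG, which each G-box also contains, and 2.36% the evening element AAAATATCT, on either strand. The G-box was found in 3 of 22 Calvin-Benson members (*RBCS2B*, *HCEF1* and *PRK*) and in 3 of 20 photorespiratory members (*GGT1*, *GGT2* and *GLDP1*). The I-box core was found in 5 of 22 (*RBCS2B*, *RCA*, *HCEF1*, *CP12-2* and *CP12-3*) and in 1 of 20 (*GLDP2*), the ABA-responsive core in 6 of 22 and 4 of 20, and the evening element in 0 of 42. Such matches are letters in a window, not sites. Some windows overlap a neighbouring gene, among them those of *CP12-2*, *GGT2* and *HPR1*, which hold matches. The windows of 3 members that differed in direction are printed with G-boxes, I-box cores and ABA-responsive cores in capitals, chosen after the values were seen: *RBCS2B*, which fell in both steps (chr5:15382072-15382321, minus strand), *CP12-3*, which rose in both (chr1:28727956-28728205, plus strand), and *GLDP1*, which fell and then rose (chr4:15931423-15931672, minus strand).
RBCS2B: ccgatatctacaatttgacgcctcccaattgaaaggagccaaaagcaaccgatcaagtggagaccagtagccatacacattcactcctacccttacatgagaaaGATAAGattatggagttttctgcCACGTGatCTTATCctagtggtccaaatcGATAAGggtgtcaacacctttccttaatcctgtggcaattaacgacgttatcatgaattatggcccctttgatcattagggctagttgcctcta
CP12-3: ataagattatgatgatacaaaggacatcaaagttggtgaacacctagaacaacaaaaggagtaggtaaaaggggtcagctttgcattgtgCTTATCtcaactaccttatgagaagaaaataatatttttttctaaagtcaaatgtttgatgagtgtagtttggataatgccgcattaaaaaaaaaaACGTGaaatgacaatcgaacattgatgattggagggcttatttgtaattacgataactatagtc
GLDP1: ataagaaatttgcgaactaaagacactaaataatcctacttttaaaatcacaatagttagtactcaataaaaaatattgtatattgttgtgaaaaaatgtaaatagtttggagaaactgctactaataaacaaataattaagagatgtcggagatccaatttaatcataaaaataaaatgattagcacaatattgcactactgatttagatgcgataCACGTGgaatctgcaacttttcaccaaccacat
In *RBCS2B* the G-box starts 123 bases before the gene start, with an I-box core on either side of it at 146 and 115 bases and another at 94. In *CP12-3* an I-box core starts at 160 bases and an ABA-responsive core at 64, and in *GLDP1* a G-box starts at 33 bases. The neighbours *RBCS1B* and *RBCS3B* and the single gene *RBCS1A* fell with *RBCS2B* from S1 to S3. The windows of *RBCS1B*, *RBCS3B* and *RBCS1A* hold none of the 4 letter runs. The annotated gene starts of the 4 copies lie at unlike distances before their start codons. Their windows thus cover different stretches, and the presence or absence of a letter run cannot be compared between the copies.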

How the data were processed

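RNA of rosette leaves was sequenced in 6 libraries, 2 each of W, S1 and S3, grouped by the condition in the labels. The authors mapped the reads to TAIR10 with bowtie and TopHat and computed the deposited FPKM values per gene and replicate with Cuffdiff, W and S1 in 1 run and S3, per the file headers, in another. CASAVA 1.8.2 is also named in the submitters' processing notes. No read counts per gene were used, so counting errors are unknown, and with 2 libraries per condition the precision rests on the spread between them. The library kits named do not mark strand, so reads of overlapping genes on opposite strands, of which 13 members have a partner of either strand, cannot be told apart.

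A single linear model of log2(FPKM + 1) held all 6 libraries, with a term for condition alone (limma 3.58.1, R 4.3.3), moderated with a variance trend (3 residual and 2.07 prior degrees of freedom). Adjusted p-values are by the method of Benjamini and Hochberg over 24759 genes. Log2 fold changes are on this scale, which understates changes of low genes, and are given with standard errors. The 25th percentile of FPKM was 0.831 and removed 0 calls. Percentages of W or S1 are ratios of condition means. The members, lists and ratios were chosen with earlier results of these data known. All 42 members are named, and of each other list the 2 genes with the largest S1/W change among those differentially expressed, plus copies that can share reads. Sequences, coordinates and gene models were read from RefSeq's annotated TAIR10.1 assembly by locus identifier, which 32815 of the 33555 loci matched, with Python 3.11, pandas 2.3.3 and matplotlib 3.10.9. The fit was tested on simulated data. The alternatives tried were other scalings, a replicate block, fits of only the 4 libraries of a comparison, other filters, a pseudocount of 0.1, no variance trend and each library left out.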

Additional observations from a re-analysis of the deposited data

How the results depend on the processing

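Of the calls by all criteria, 20 of 20 in S1/W, 17 of 19 in S3/S1 and 29 of 30 in S3/W held under all 7 scaling and model alternatives, and 16 of 20, 12 of 19 and 28 of 30 with each library left out in turn. The exceptions under the former were *TIM* (-1.0 after rounding) and *SHM1* (-0.98) in S3/S1 once each library had the same summed FPKM, and *RCA* in S3/W with only the 4 libraries compared (adjusted p = 0.0532). Without a library, the members called lower were 12 to 15 (Calvin-Benson) and 4 to 6 (photorespiration) in S1/W, 7 to 10 and 4 to 7 in S3/S1, and 16 to 17 and 11 in S3/W, and the photorespiratory members higher in S3/S1 were 2 to 3. Scaled to the same sum, 7 photorespiratory members were lower in S1/W.

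With no criterion on the fold change, 6917 genes were higher and 6385 lower in S1/W, 3938 and 4000 in S3/S1, and 7501 and 6732 in S3/W. Photorespiratory members lower in S1/W were then 15, those higher in S3/S1 6 and in S3/W 3, and Calvin-Benson members higher in S3/S1 2. With the 13 members that overlap another gene model left out, a choice made after seeing the data, 2 photorespiratory members were lower in S1/W, 1 was higher in S3/S1, and 11 Calvin-Benson members were lower in S3/W, since fewer members were counted. The ratio of the photorespiratory to the Calvin-Benson sum, 0.291 in W, 0.553 in S1 and 0.963 in S3, was 0.398 in W and 0.732 in S3 with medians in place of sums. It was 0.507, 0.823 and 1.04 without the small subunit genes, and 0.350 in S1 and 0.802 in S3 with *RBCS1A* kept, both chosen after seeing the data.

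Some changes that were not called turned sign, and their values with a library left out in turn ran from -0.13 to 0.04 for *GGT1*, from -0.49 to 0.03 for *GGT2* and from -0.01 to 0.11 for *GLU1* in S1/W, and from -0.04 to 0.14 for *GOX1* and from -0.48 to 0.03 for *GLDP2* in S3/W. With the same summed FPKM, *GLU1* gave -0.04 in S1/W. The cause of these shifts was not tested. Whether libraries of the same replicate number belong together is not known. Over 14373 genes the replicate differences correlated at 0.1709 between W and S1, 0.0157 between W and S3 and -0.006 between S1 and S3. With the replicate block, 15 Calvin-Benson and 4 photorespiratory members were lower in S1/W, 10 and 6 in S3/S1 and 18 and 11 in S3/W, as without it, and 4 changes called by the adjusted p alone were lost, at values above 0.05: *PGK1* in S1/W (0.0598) and *FBA2* (0.0564), *RPE* (0.0606) and *CP12-2* (0.058) in S3/S1.

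With 2 libraries a condition and unknown counts per gene, the fit limits what can be seen: a change that missed the threshold is not shown to be absent. Levels of *RBCS1A* in W, of the small subunit neighbours and of *PGLP1* are uncertain in themselves.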
